A study of Mus musculus with 18 samples.

Results

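Dorsal skin that had been tape-stripped repeatedly was compared with dorsal skin that had not. Both groups were male mice of HR-1, an albino hairless strain, 6 weeks old per the labels, and each group holds 6 arrays. Group NT had no stripping. In group TS, cellophane tape was pressed on and pulled off the left side of the back in 3 sessions a week over 4 weeks, and a session was stopped when transepidermal water loss, the evaporation of water through the skin, reached 70 to 100 g/m2/h. The 12 NT and TS arrays are 12 of the 18 in the series. The other 6, group TS_WB, came from mice stripped in the same way that were also dosed orally with 200 mg/kg/day of winged bean extract, suspended in 0.3% carboxymethylcellulose and given on 5 days a week over 5 weeks, the first of them before stripping began. Whether NT and TS mice were given the carboxymethylcellulose vehicle is not stated, and neither is the side of the back that NT skin came from. The labels call the 6 arrays of a group biological replicates.

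Tape takes off the outermost dead cell layers of the epidermis, the stratum corneum, which keeps water in and microbes out. Keratinocytes divide in the basal layer, then climb, fill with keratin filaments, lay down a cross-linked protein shell called the cornified envelope, extrude ceramides, cholesterol and fatty acids between the cells, and are shed by proteases. When the barrier is broken, keratinocytes of the living layers are known to switch on a set of stress keratins and envelope precursors, to divide more and to release interleukin 1 family cytokines. Dorsal skin RNA also holds hair follicles, sebaceous glands, dermis, immune cells, fat and the thin striated muscle under the skin.

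Total RNA was read on Affymetrix mouse genome arrays, on which a probe set is a group of short probes for 1 transcript. The deposited values were read as log2, so a difference of 1 is a doubling, and the number of arrays limits the precision. The table has no measure of background, so folds are given only for genes whose lower group mean lies above the median of the array medians (6.94), and differences of dimmer genes are of uncertain size. Of 45037 probe sets that are not array controls, 33091 were constant to within 0.01 log2 on all 18 arrays and give no information. The other 11946 were tested with limma, and 7443 genes are represented by their brightest varying probe set. A gene is said to have risen or fallen where the adjusted p was under 0.05 and the difference was at least 0.01 log2. Arrays correlated at 0.901 to 0.989 within NT, 0.957 to 0.986 within TS and 0.838 to 0.939 between them. NT 5 had the lowest mean correlation with its own group, 0.904 against 0.966 to 0.970 for the other NT arrays, and holds all 13 values above 16 in the table, among them albumin (Alb) at 19.04. Without it, Alb differed by -0.35 (limma adjusted p = 0.0142). Of 23 varying liver markers, 2 fell, and the mean level of the 23 was 14.18 on NT 5 against 7.13 to 7.26 on the other NT arrays and 7.07 to 7.14 on TS arrays. Results were also computed without NT 5, and a lost call, or a count that moved by over 1.5 times, is named beside its result.

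Stripping went with differences in about as many genes upward as downward. Of the 7443 genes, 3614 were called (48.6%), of which 1780 (23.9%) rose and 1834 (24.6%) fell. Differences of at least 1 log2 were fewer (5.98%), at 164 genes (2.2%) upward and 281 (3.78%) downward, and the median difference over all genes was 0.003. The 12 arrays did not overlap for 908 genes with TS above NT (12.2%) and 979 with TS below NT (13.2%). The counts of each list below are to be read beside these shares of all genes. Of the 445 genes past 1 log2, 126 had another varying probe set, and in 119 of these another one was called the same way, in 0 the opposite way. Leaving out NT 5 gave 5305 probe sets called against 5664 (47.4% of those tested), 1651 genes higher and 1739 lower, and 167 and 289 of these past 1 log2. The array carries probe sets for both ends of beta-actin, whose 3' minus 5' difference shows how far labelled RNA reaches from the 3' end: it was -0.65 to -0.38 on NT arrays and 0.08 to 0.26 on TS arrays, a difference of 0.66 (exact permutation test, two-sided, p = 0.00216, adjusted 0.00649), and its part in the results was not tested. In bulk skin RNA, fewer cells of a type, less RNA per cell and more RNA from other cells cannot be told apart.

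**Figure D1:**
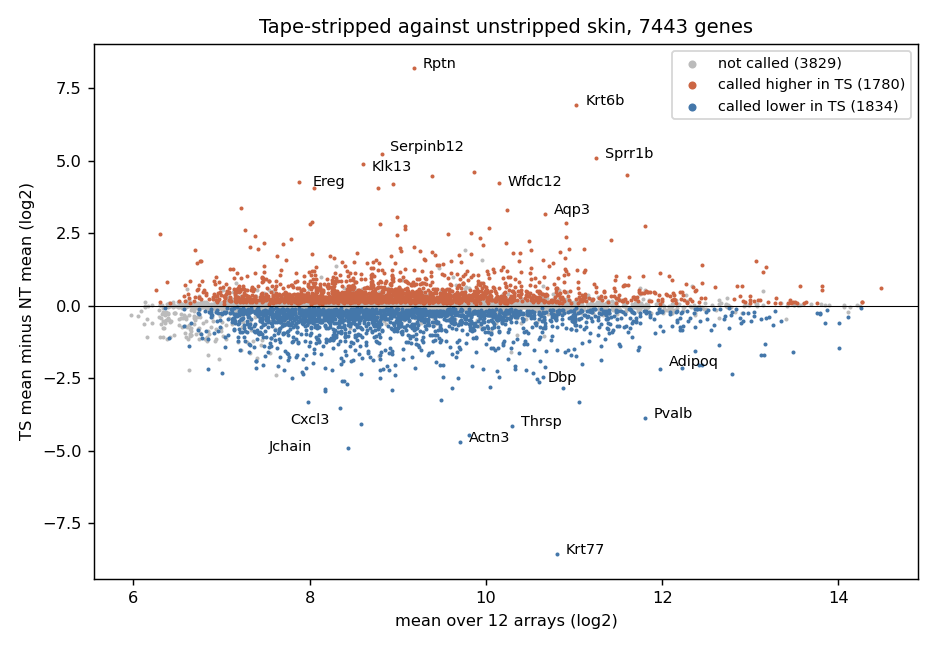
Difference of the group means (TS minus NT, log2) against the mean over the 12 arrays (log2) for 7443 genes, 1 point per gene, coloured by the call. Rptn (8.20) and Krt77 (-8.58) stand at the upper and lower ends, and called genes lie on both sides of 0.

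Some keratins of wounded epidermis were far higher in stripped skin, and a keratin of resting epidermis was far lower. Of 5 varying stress keratins 3 rose, 1 fell (-0.77) and 1 was not called. Krt6b, a keratin made in wounded and overgrowing epidermis, read 6.47, 7.41 and 8.78 (lowest, median and highest) on NT arrays and 13.66, 14.41 and 15.25 on TS arrays. The lowest stripped array lay 4.88 above the highest unstripped one, and the rise was 6.93, SE 0.41 (adjusted p = 1.28e-06). Krt16, its partner in the filament, read 8.61, 9.31 and 9.97 on NT and 12.51, 13.74 and 15.00 on TS, a rise of 4.52, SE 0.40, or 23-fold. Krt6a rose less, by 1.41 (SE 0.19), from 11.38 to 11.97 on NT to 12.42 to 13.73 on TS. Whether the probes keep the near-identical copies Krt6a and Krt6b apart was not tested. Krt17, often listed with them, differed by -0.33 (adjusted p = 0.0574) and overlapped, with differences of -0.40 to -0.37 and a call without NT 3, NT 6 or TS 5. With all 12 arrays kept, Krt17 was also called lower with arrays weighted by their quality and with the replicate number fitted as a block. The opposite move was that of Krt77, a keratin of the upper epidermal layers and of sweat ducts. It read 14.95, 14.98 and 15.54 on NT and 6.08, 6.29 and 7.21 on TS, a difference of -8.58, SE 0.20 (adjusted p = 5.51e-10), and no array of either group came within 7.74 of the other.

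Other epidermal keratins named here moved by less than Krt6b, Krt16 and Krt77. The basal pair Krt5 and Krt14, which form the filaments of dividing keratinocytes, rose by 0.70 (SE 0.16) and 0.70 (SE 0.11). The suprabasal pair Krt1 and Krt10, which replace them as cells climb, rose by 1.34 (SE 0.18) and 0.55 (SE 0.11). Krt78, another suprabasal keratin, rose from 7.65 to 8.36 on NT to 8.60 to 10.18 on TS, while Krt15, a keratin of quiescent basal and follicle bulge cells, fell by 0.95 (SE 0.19). Among the 23 varying keratins and filament partners, 12 rose and 4 fell, with a median difference of 0.18.

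Precursors of the cornified envelope were higher in stripped skin. Of its 46 varying members 29 rose (63.0%) and 4 fell (8.7%), against 23.9% and 24.6% of all genes. In 18 of the 46 the TS arrays lay wholly above the NT arrays, as in 12.2% of all genes. Rptn encodes repetin, a protein of the envelope with a calcium-binding S100 start and glutamine-rich repeats that transglutaminases cross-link. It read 4.28, 5.15 and 5.76 on NT and 12.87, 13.13 and 14.23 on TS, so that every stripped array stood at least 7.11 above every unstripped one, a difference of 8.20, SE 0.31 (adjusted p = 3.24e-08). Hrnr (hornerin) and Flg (filaggrin), the related granule proteins, rose by 1.96 (SE 0.32) and 1.05 (SE 0.17). Their relatives of the hair follicle, Tchh (trichohyalin) and Tchhl1, fell by 2.09 (SE 0.48) and 0.80 (SE 0.15).

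The small proline-rich proteins are short spacers that transglutaminases weave into the envelope, and all 7 varying members of the family rose. Sprr1b read 8.01, 8.82 and 9.33 on NT and 12.96, 13.84 and 14.54 on TS, a rise of 5.09, SE 0.31, or 33.9-fold, with no overlap. Sprr2d rose from 6.78 to 8.36 on NT to 11.37 to 12.87 on TS (24.7-fold, adjusted p = 4.29e-06) and Sprr2h from a median of 7.34 on NT to 11.81 on TS (22.3-fold, adjusted p = 2.57e-05). The count rests on single arrays, at 4 of 7 without NT 1, TS 3 or TS 6 and when constant probe sets were tested too, and the Sprr2 genes are close copies that probes may not separate. In the late cornified envelope family, Lce3f and Lce3c, members linked to barrier repair, read 5.56 to 6.44 and 7.37 to 7.51 on NT against 8.78 to 11.55 and 9.02 to 11.96 on TS. Of its 16 varying members 6 rose, while 14 did with arrays weighted by their quality and 13 without TS 5. Among the stripped arrays, TS 5 was the lowest for 3 of the 6 and the highest for 3. Lor (loricrin), the bulk protein of the envelope, overlapped between groups, at 12.36 to 13.17 on NT and 12.43 to 13.70 on TS (difference 0.51, adjusted p = 0.08), and its lowest stripped value was on TS 5. Without TS 5 the difference was 0.71 (limma adjusted p = 0.00295). Lor was also called higher with arrays weighted by their quality and with its probe sets averaged. Ivl (involucrin) rose by 0.49 (SE 0.12). Of the 10 varying scaffold proteins listed outside these families 7 rose and 1 fell, with differences from -2.23 to 1.54. In 1 of the 10 the TS arrays lay wholly below NT.

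The stretch before the transcription start of the leading envelope genes is shown because these genes moved together. AP-1, a dimer that Fos forms with its partners, binds TGANTCA, which was searched on both strands (a palindrome around N) in the 250 bases before each start, with sequences and coordinates from RefSeq (GRCm38.p6) and matches in capitals. Rptn lies at chr3:93393449-93393698, plus strand, Sprr1b at chr3:92438780-92439029, minus strand, Sprr2d at chr3:92338890-92339139, plus strand and Sprr2h at chr3:92385435-92385684, plus strand, each printed 5' to 3' on the strand of its gene.
Rptn: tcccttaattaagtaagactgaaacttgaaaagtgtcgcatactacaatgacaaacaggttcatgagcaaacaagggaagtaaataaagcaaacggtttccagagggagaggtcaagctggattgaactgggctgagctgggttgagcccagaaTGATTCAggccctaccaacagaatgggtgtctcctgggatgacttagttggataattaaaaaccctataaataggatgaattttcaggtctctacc
Sprr1b: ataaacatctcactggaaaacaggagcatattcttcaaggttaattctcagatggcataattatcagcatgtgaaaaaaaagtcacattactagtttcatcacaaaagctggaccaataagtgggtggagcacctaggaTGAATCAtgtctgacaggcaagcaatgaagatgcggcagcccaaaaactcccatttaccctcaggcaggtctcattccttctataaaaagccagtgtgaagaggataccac
Sprr2d: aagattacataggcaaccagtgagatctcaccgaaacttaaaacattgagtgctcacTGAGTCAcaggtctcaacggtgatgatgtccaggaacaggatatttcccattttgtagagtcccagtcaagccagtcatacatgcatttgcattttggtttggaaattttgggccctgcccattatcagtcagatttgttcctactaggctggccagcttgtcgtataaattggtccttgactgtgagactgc
Sprr2h: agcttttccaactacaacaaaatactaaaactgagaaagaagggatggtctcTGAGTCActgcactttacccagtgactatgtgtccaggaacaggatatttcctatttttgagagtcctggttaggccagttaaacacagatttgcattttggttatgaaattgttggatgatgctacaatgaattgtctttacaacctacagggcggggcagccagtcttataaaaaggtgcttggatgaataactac
Only windows with a match are printed, and each of these holds 1 match. All 7 small proline-rich genes that rose hold one, as do 6 of the 15 genes with a window among the 20 largest rises and 0 of the 17 among the 20 largest falls, against 2217 of all 32851 windows (6.75%) and 7.82% of genes. The small proline-rich genes and the largest rises share Sprr1b, Sprr2d and Sprr2h. The Sprr2 genes are close copies, so their matches are not independent. No enrichment was tested, and a match describes letters, not binding.

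The enzymes that close the envelope rose beside it. Tgm1 and Tgm3, the transglutaminases that cross-link it, rose by 1.23 (SE 0.11) and 1.66 (SE 0.28). Casp14, the caspase that trims filaggrin, read 8.28, 8.75 and 9.19 on NT and 10.24, 11.12 and 11.63 on TS, a 5.09-fold rise without overlap. Blmh, which breaks filaggrin fragments down to amino acids, rose by 2.23, SE 0.17 (4.7-fold, adjusted p = 4.64e-06). Padi3, a deiminase of granules and follicles, fell by 0.86 (SE 0.22).

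Shedding of dead cells is run by kallikreins and held back by protease inhibitors, and both sides were higher in stripped skin. Of 40 varying members, 23 rose and 4 fell. The count of falls was 1 without NT 3 or TS 2 and 2 without NT 1, NT 2, NT 4, NT 5, TS 1, TS 3 or TS 5. Klk13, a kallikrein of stratified epithelia, read 5.51, 6.20 and 6.82 on NT and 10.15, 10.96 and 11.92 on TS (difference 4.90, SE 0.32, adjusted p = 2.26e-06). Klk8 and Klk9 rose by 1.94 (SE 0.19) and 1.81 (SE 0.16). Among inhibitors, Serpinb12 read 5.74, 6.18 and 6.78 on NT and 10.62, 11.34 and 12.63 on TS, a difference of 5.24, SE 0.33. Wfdc12, a small whey acidic protein inhibitor, read 7.59, 7.95 and 8.52 on NT and 11.89, 12.12 and 12.94 on TS, a rise of 18.9-fold (adjusted p = 6.14e-07). The stefins, which block cysteine proteases, were higher too, with Stfa2l1 at 5.37 to 6.08 on NT and 8.64 to 10.92 on TS and Stfa3 at 9.88 to 11.01 and 12.77 to 13.63. Klk13, Serpinb12, Wfdc12, Stfa2l1 and Stfa3 each read higher on every stripped array than on any unstripped one.

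**Figure D2:**
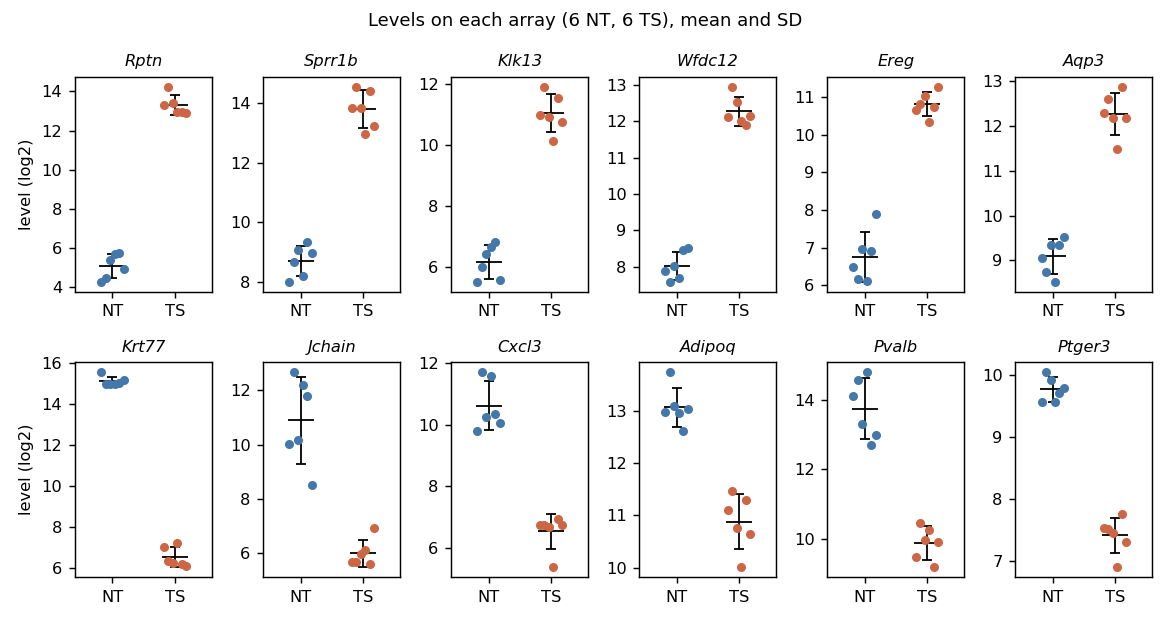
Levels (log2) of 12 genes on each of the 6 NT and 6 TS arrays, 1 point per array, with the mean and SD as a bar. For each gene the groups do not overlap: Rptn, Sprr1b, Klk13, Wfdc12, Ereg and Aqp3 lie higher on TS, and Krt77, Jchain, Cxcl3, Adipoq, Pvalb and Ptger3 lie lower.

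Genes that make and process the lipids between the dead cells were called higher more often than all genes, but those of fatty acid elongation and transport were not. Of 40 varying ceramide and barrier lipid genes 20 rose (50%) and 4 fell (7 without TS 4). Cers3, which makes the ultra-long ceramides specific to skin, read 7.40, 8.15 and 8.44 on NT and 9.40, 10.20 and 10.31 on TS, a rise of 1.99, SE 0.20 (3.96-fold). Its relative Cers5 fell by 1.17 (SE 0.11). Degs2, which adds the hydroxyl group of phytoceramides, rose by 1.04 (SE 0.19). Of 13 genes of lipid processing 10 rose and 0 fell by limma (1 at an unadjusted p under 0.05; 1 fell without NT 6 or TS 1 and 2 without TS 4). Those that rose included the cholesterol sulfotransferase Sult2b1 (1.41, SE 0.11), the dehydrogenase Sdr9c7 of the acylceramide pathway (1.19, SE 0.13), the lipase coactivator Abhd5 (1.06, SE 0.094) and the lipoxygenase Alox12b (0.75, SE 0.13). Of 15 cholesterol synthesis enzymes 10 rose and 0 fell by limma (also 0 at an unadjusted p under 0.05), led by squalene epoxidase Sqle, from 9.44 to 10.03 on NT to 10.54 to 11.08 on TS. Of 13 genes of fatty acid elongation and transport 3 rose (23.1%; 5 without TS 5, and 1 when constant probe sets were tested too) and 1 fell (2 without NT 1, TS 1 or TS 4). Among them Fabp5, the fatty acid carrier of keratinocytes, rose by 0.68 (SE 0.065).

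Desmosomal genes and carriers of water and ions were higher in stripped skin, while genes of other cell contacts were called in both directions. Of 11 desmosomal genes 8 rose and 1 fell. Of 14 genes of tight and gap junctions 6 rose and 3 fell, and of 15 of hemidesmosomes and basement membrane 5 rose (33.3%; 3 when constant probe sets were tested too) and 4 fell (26.7%), not far from the shares of all genes. Dsc1, a cadherin of the uppermost living layers, read 9.09, 9.86 and 10.06 on NT and 11.77, 12.03 and 12.51 on TS (5.25-fold), and Dsg1b and Dsg1a rose by 1.49 (SE 0.25) and 0.91 (SE 0.18). The gap junction genes Gjb6 (connexin 30) and Gjb2 (connexin 26), low in resting epidermis, read 6.38 to 6.83 and 8.21 to 9.14 on NT and 8.06 to 10.47 and 9.38 to 12.81 on TS, with TS 4 the lowest stripped array for both. Ocln (occludin), of tight junctions, fell by 0.32 (SE 0.088). Col7a1, the collagen of the anchoring fibrils under the basal layer, rose by 1.24 (SE 0.13). Of 16 transport genes 11 rose and 2 fell. Aqp3, the water and glycerol channel of basal keratinocytes, read 8.52, 9.20 and 9.52 on NT and 11.49, 12.23 and 12.87 on TS, a 9.02-fold rise, and all 3 of its varying probe sets were called higher. Car2, a carbonic anhydrase, rose by 2.51 (SE 0.24) and Slc2a1, the glucose carrier of keratinocytes, by 1.83 (SE 0.16).

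Transcription factors of epidermal differentiation were higher where they were called. Of 26 varying members 12 rose (46.2%) and 0 fell by limma (1 at an unadjusted p under 0.05, and 1 called without NT 6, TS 1, TS 2 or TS 5). In 11 of the 26 the TS arrays lay wholly above NT, as in 12.2% of all genes. The largest were Tfap2c (1.32, SE 0.19), Klf5 (1.09, SE 0.16), Ovol1 (1.04, SE 0.14), Grhl3 (0.92, SE 0.13) and Klf4 (0.73, SE 0.12), regulators of the step from dividing to cornifying cell.

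Among growth and alarm signals, some ligands made by keratinocytes rose, while growth factor genes were called in both directions. Of 25 varying growth factor genes 4 rose (16%) and 8 fell (32%), against 23.9% and 24.6% of all genes. The count of rises was 2 when each gene was read by its brightest probe set overall. Ereg (epiregulin), a ligand of the EGF receptor, read 6.12, 6.69 and 7.89 on NT and 10.34, 10.77 and 11.27 on TS, a difference of 4.05, SE 0.28 (adjusted p = 2.84e-06) with no overlap. Hbegf, another ligand, rose by 0.38 (SE 0.091). Of the 7 varying receptor and feedback genes of that pathway 1 was called, the phosphatase Dusp6, which fell (-0.59, SE 0.12). Of 15 other growth factor genes 2 rose and 7 fell (46.7%), among them Igfbp6 (-1.45, SE 0.22), which binds insulin-like growth factors, and Bmp4 (-1.23, SE 0.19), a signal of dermis and follicle. Of 12 varying interleukin 1 and 36 family genes 7 rose and 0 fell by limma (1 at an unadjusted p under 0.05; 1 called without NT 1, NT 6 or TS 1, and 2 without TS 5). Il1f6 (interleukin 36 alpha) read 7.16, 7.79 and 7.89 on NT and 9.51, 10.57 and 11.09 on TS, Il1f9 (interleukin 36 gamma) rose by 1.75 (SE 0.16) and Il1f8 (interleukin 36 beta) by 1.76 (SE 0.20). Il1f5, the antagonist of the same receptor, rose as well, by 1.30 (SE 0.16). Il1b differed by -0.50 (adjusted p = 0.182) and overlapped, and by -0.74 without TS 5 (limma adjusted p = 0.0138).

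Antimicrobial genes did not move as a block, with 5 of 20 higher (25%) and 4 lower (20%), both near the shares of all genes. Defb1, a beta-defensin, read 6.90, 7.35 and 7.82 on NT and 9.96, 10.19 and 10.54 on TS (7.12-fold, adjusted p = 9.88e-07). The calprotectin genes S100a8 and S100a9 overlapped: S100a8 was 7.67 to 8.73 on 5 NT arrays and 12.03 on NT 4, against 8.74 to 12.56 on TS (adjusted p = 0.0613). Without NT 4 both were called, S100a8 with a difference of 2.58 and S100a9 of 2.16, and without TS 4 also, with 2.33 and 2.07. S100a8 alone was also called higher in a fit of all 18 arrays and with arrays weighted by their quality. Without NT 4, or without TS 4, the list had 8 higher members. Of 6 varying neutrophil genes 0 were called by limma (1 higher at an unadjusted p under 0.05), with 2 higher without NT 4 or without TS 4. Mast cell genes did rise, 6 of 11: the tryptase Tpsab1 from 6.97 to 9.06 on NT to 9.11 to 10.80 on TS, and the IgE receptor chain Fcer1a from 7.60 to 8.35 on NT to 9.12 to 9.54 on TS.

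Genes of cell division were higher in stripped skin, to very different degrees from array to array. Of 33 varying mitosis genes 29 rose (87.9%, against 23.9% of all genes) and 0 fell by limma (also 0 at an unadjusted p under 0.05). The median difference of the 33 was 0.73. In 20 of the 33 the TS arrays lay wholly above NT, as in 12.2% of all genes. Cdca8, a part of the chromosome passenger complex, read 7.50, 7.55 and 7.78 on NT and 8.30, 9.20 and 9.80 on TS, a rise of 1.52 (SE 0.24). Mki67, the common marker of cycling cells, rose by 0.84 (SE 0.18), and Rrm2, which makes DNA building blocks, by 1.61 (SE 0.33). For all 29 mitosis genes that rose the lowest stripped array was TS 4, and for 25 the highest was TS 2. Mean levels of the 33 genes were 7.69 to 7.87 on NT arrays, 7.95 on TS 4 and 8.22 to 8.95 on the other TS arrays. The count for S phase moved with that array, from 10 of 20 to 16 of 20 without TS 4, and was 5 of 20 when constant probe sets were tested too.

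Hair genes were lower in stripped skin, with a wide spread among the stripped arrays. All 8 varying genes of the inner root sheath and medulla and all 19 of the hair shaft fell (24.6% of all genes), yet in none of the 27 were the 12 arrays apart. Krt27, of the inner root sheath, read 10.21, 11.25 and 11.79 on NT and 6.59, 7.95 and 10.42 on TS (difference -2.84, SE 0.62, adjusted p = 0.0029). Krtap11-1 (-2.68, SE 0.61) and Krtap15 (-2.60, SE 0.77), which bind the keratins of the shaft, fell, the latter not called when constant probe sets were tested too. Krt25, a keratin of the same sheath as Krt27, fell by 2.46 (SE 0.55), and Prr9, a proline-rich protein of the shaft, read 11.11 to 12.55 on NT and 7.96 to 11.41 on TS. TS 6 was the highest stripped array for all 27, with a hair shaft mean of 9.10 against 6.37 to 7.96 on the other TS arrays and 8.62 to 9.40 on NT arrays. TS 1 or TS 4 was lowest for 26 of the 27. The hair cycle stage of the skin sampled is not recorded. Among genes that regulate the follicle, Wnt4, a secreted signal, rose by 1.51 (SE 0.16) and Sfrp1, which binds such signals, fell by 1.12 (SE 0.12). The bulge marker Cd34, also made by vessels and dermal cells, fell by 1.48 (SE 0.13) with a narrower spread (11.43 to 12.14 on NT, 10.11 to 10.63 on TS). Of 16 varying genes of the sebaceous gland, which secretes lipid onto the skin, 7 fell and 2 rose (1 without NT 1, NT 2, NT 4, NT 5 or any of TS 1 to TS 4). Scd3, a desaturase of sebocytes, fell by 1.41 (SE 0.35) and the triglyceride enzyme Dgat2 fell by 1.07 (SE 0.11). TS 1 was the highest stripped array for 6 of the 7.

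**Figure D3:**
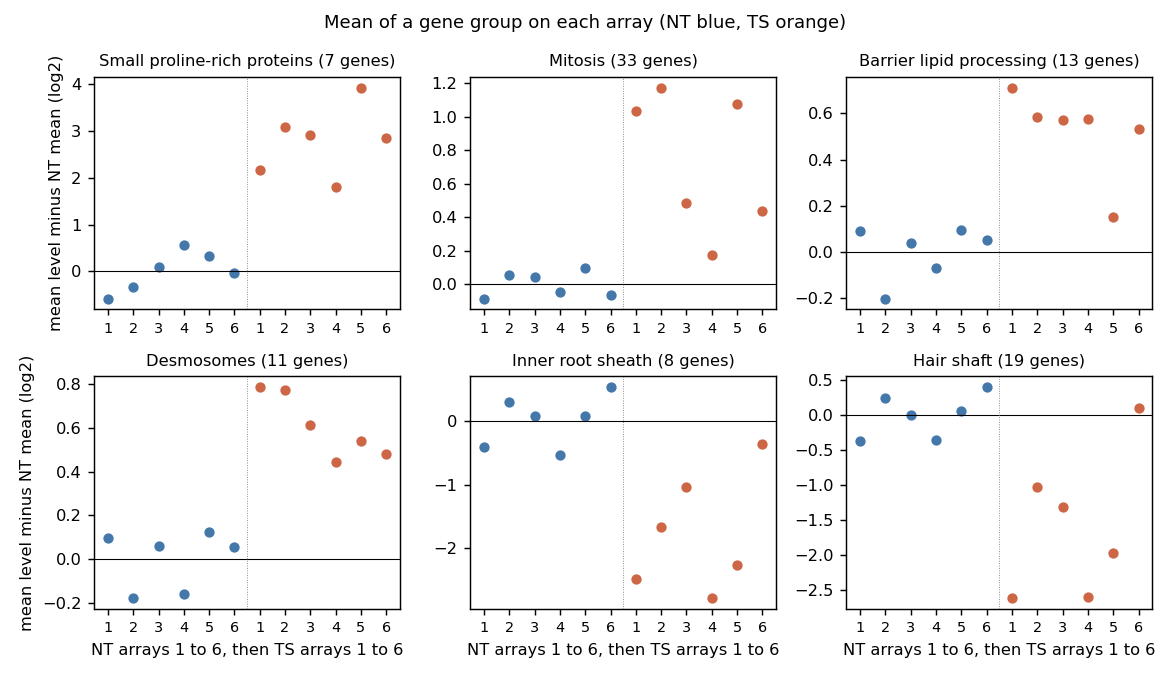
Mean level of 6 gene groups on each array (log2, minus the mean of the 6 NT arrays), 1 point per array, NT arrays 1 to 6 then TS arrays 1 to 6. TS 4 is the lowest stripped array for mitosis, TS 5 for barrier lipid processing, and TS 6 is the highest for both hair groups.

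The spread among stripped arrays differed from one epidermal programme to another. Of the 164 genes that rose by at least 1 log2, the lowest stripped value was on TS 4 for 80, on TS 5 for 45 and on the other 4 arrays for 4 to 15 each. All 3 stress keratins that rose, as the 29 mitosis genes, were lowest on TS 4: Krt16 read 12.51 there and 13.26 to 15.00 on the other TS arrays. All 3 suprabasal keratins that rose were lowest on TS 5, and so were several genes of late differentiation: Flg read 11.71 there and 12.36 to 12.51 on the others, Hrnr 11.03 against 12.14 to 12.48, and Casp14 10.24 against 10.94 to 11.63. TS 5 was also lowest for 7 of the 10 lipid processing genes and 7 of the 10 cholesterol enzymes that rose. The replicate numbers carry no order, and the labels give nothing that tells these animals apart.

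**Figure D4:**
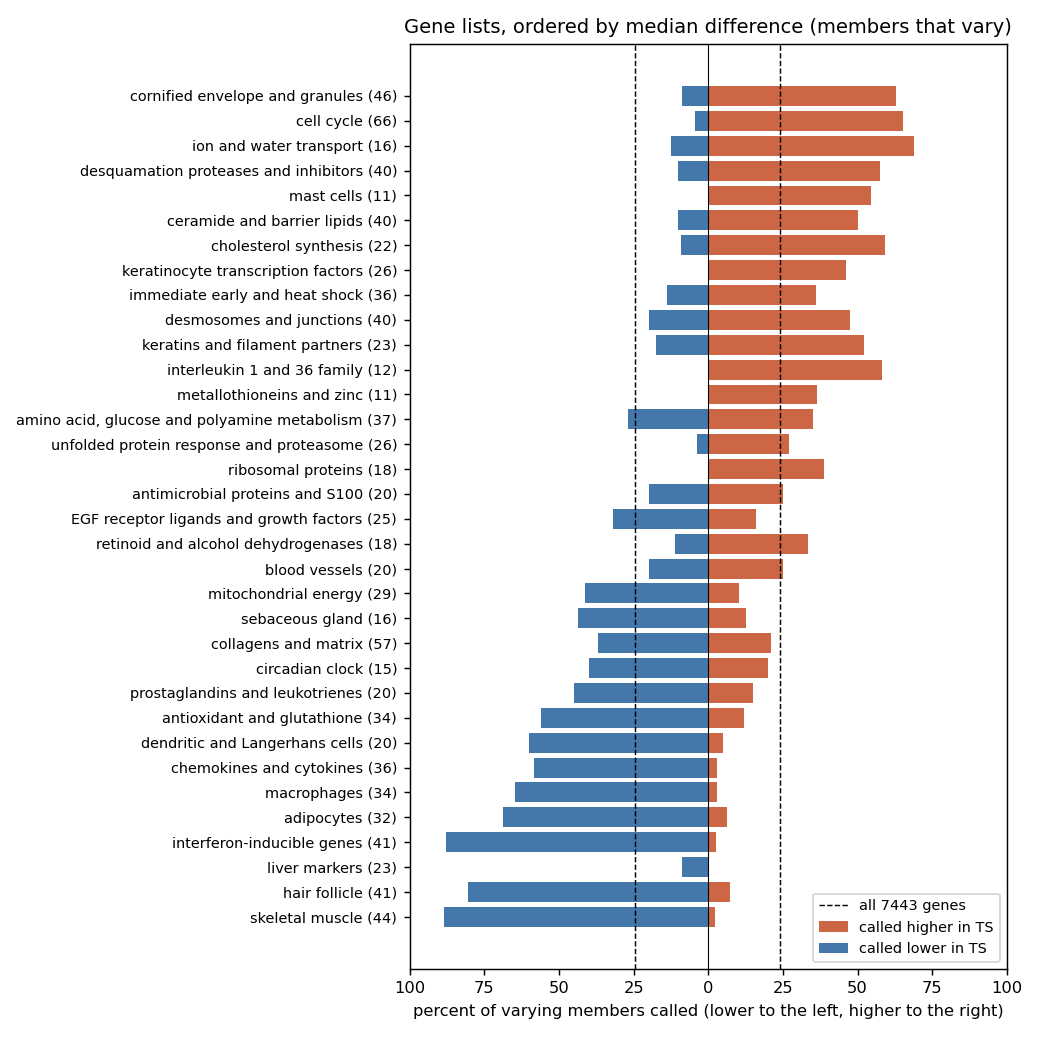
Percent of varying members called higher (right, orange) and lower (left, blue) in TS for gene lists with at least 11 varying members, ordered by the median difference; dashed lines give the shares over all 7443 genes (23.9% and 24.6%). Cornified envelope and cell cycle lists stand at the top, and hair follicle and skeletal muscle lists at the bottom.

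Muscle and fat transcripts were lower in stripped skin. Of 44 varying skeletal muscle genes 39 fell (88.6%) and 1 rose. Actn3, the actinin of fast fibres, read 10.35, 12.05 and 13.99 on NT and 6.77, 7.41 and 8.10 on TS. The lowest NT array lay 2.25 above the highest TS array. Pvalb, the calcium buffer of fast fibres, read 12.68, 13.69 and 14.79 on NT and 9.18, 9.93 and 10.46 on TS, also without overlap. Casq1, which stores calcium in fast fibres, fell by 3.26 (SE 0.28), Ckm, muscle creatine kinase, by 2.35 (SE 0.30), and the kinase Mylk4 fell by 3.54 (SE 0.42). Mybpc2, a myosin-binding protein of fast fibres, fell by 2.82 (SE 0.52). Myh4, the myosin of the fastest fibres, read 8.89 to 14.29 on NT and 7.05 to 11.74 on TS (difference -2.85, adjusted p = 0.0445), with overlap, and its call was lost without any 1 of NT 1 to NT 4, TS 1 or TS 3 to TS 5. Among 32 varying adipocyte genes 22 fell (68.8%) and 2 rose (1 without NT 1, NT 2, NT 4, NT 5 or any of TS 1 to TS 4). Adipoq (adiponectin) read 12.61, 13.01 and 13.74 on NT and 10.01, 10.93 and 11.47 on TS. Lep (leptin) read 8.23, 8.52 and 9.32 on NT and 6.13, 6.51 and 7.27 on TS. All 6 varying adipokine genes fell without overlap, while TS lay wholly below NT in 13.2% of all genes. Thrsp, which drives fat synthesis, fell by 4.15 (SE 0.45) and Cidec, which coats lipid droplets, fell by 2.19 (SE 0.26). How much muscle and fat each piece of skin held is not recorded.

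Chemokines were lower in stripped skin. Of 36 varying chemokine, receptor and cytokine genes 21 fell (58.3%) and 1 rose, the receptor Ccr9 (0.61, SE 0.10); without TS 5, 2 rose. Cxcl3, which attracts neutrophils, read 9.79, 10.30 and 11.70 on NT and 5.39, 6.75 and 6.95 on TS, a difference of -4.07, SE 0.38 (adjusted p = 1.52e-05), and its close relative Cxcl2 fell by 2.16 (SE 0.24), from 8.73 to 10.08 on NT to 6.48 to 7.59 on TS. Of 11 CC chemokines 10 fell, among them the eosinophil attractants Ccl24 (-1.67, SE 0.24) and Ccl11 (-1.30, SE 0.25) and the monocyte attractants Ccl12 (-1.26, SE 0.29) and Ccl7 (-1.20, SE 0.20). Tslp, an epithelial cytokine that activates dendritic cells, fell by 0.85 (SE 0.18).

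Interferon-inducible genes were lower in stripped skin. Of 41 varying members 36 fell (87.8%) and 1 rose, and in 25 the TS arrays lay wholly below (13.2% of all genes). Ifi27l2a read 11.34, 12.86 and 13.72 on NT and 8.70, 9.22 and 10.52 on TS, a fall of 9.89-fold. Gbp2, a guanylate-binding protein of cell-autonomous defence, had medians of 9.60 on NT and 8.05 on TS with no overlap (2.88-fold lower). Trim30a, a ubiquitin ligase of the same response, read 8.40, 9.26 and 9.57 on NT and 7.40, 8.02 and 8.48 on TS, and overlapped slightly. The immunoproteasome subunits Psmb9 and Psmb8, which cut peptides for antigen display, fell by 1.34 (SE 0.17) and 1.17 (SE 0.16), and the transcription factor Irf1 by 0.50 (SE 0.073). The member that rose was Ifitm1 (0.75, SE 0.18), a membrane protein that blocks virus entry.

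The 250 bases before the start of a pair of these genes are shown with the core of the interferon-stimulated response element in capitals: GAAA, any 2 bases, GAAA, searched on both strands, so that a match can read TTTC, any 2 bases, TTTC. Gbp2 lies at chr3:142620413-142620662, plus strand and Trim30a at chr7:104465194-104465443, minus strand. The Gbp2 window also holds TGAGTCA, a match to the AP-1 site TGANTCA, left in small letters here, although Gbp2 fell.
Gbp2: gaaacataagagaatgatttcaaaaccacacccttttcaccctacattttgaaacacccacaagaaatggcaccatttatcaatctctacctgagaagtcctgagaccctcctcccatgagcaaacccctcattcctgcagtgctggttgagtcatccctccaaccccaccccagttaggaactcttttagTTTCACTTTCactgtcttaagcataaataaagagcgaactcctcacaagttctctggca
Trim30a: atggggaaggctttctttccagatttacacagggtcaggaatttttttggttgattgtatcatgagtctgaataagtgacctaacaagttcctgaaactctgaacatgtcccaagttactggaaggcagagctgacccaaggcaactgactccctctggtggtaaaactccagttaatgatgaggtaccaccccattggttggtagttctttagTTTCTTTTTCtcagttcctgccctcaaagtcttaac
Of the 26 effector genes that fell, 17 had a window and 9 of these held a match, against 978 of all 32851 windows (2.98%) and 3.46% of genes. Among the 20 largest falls it was 1 of 17. The effectors were listed as interferon-inducible and 26 of the 28 varying ones fell, so the share of matches describes the list. Whether a match goes with the fall was not tested. Only windows with a match are printed.

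Markers of several immune cell types were lower together. Of 34 varying macrophage genes 22 fell (64.7%) and 1 rose (0 without NT 1, NT 2, NT 4, NT 6, TS 3, TS 4 or TS 6). Clec4e, a receptor for damaged cells and mycobacterial lipid, read 8.90, 9.53 and 10.36 on NT and 6.31, 6.82 and 7.04 on TS, and Retnla, a product of alternatively activated macrophages, fell by 2.33 (SE 0.47). Of 20 genes of dendritic and Langerhans cells 12 fell and 1 rose (2 without TS 4). Mgl2 and Cd209d, lectins of dermal dendritic cells and macrophages, fell by 1.84 (SE 0.17) and 1.64 (SE 0.20), and Cd74, the chaperone of class 2 molecules, by 0.83 (SE 0.19). Of 7 varying T cell genes 5 fell, with Cd3g at 8.14 to 8.94 on NT and 7.06 to 7.76 on TS. Of 4 varying B and plasma cell genes 2 fell and 2 were not called. Antibody transcripts varied widely among unstripped skins: Jchain, the joining chain of polymeric antibodies, read 8.49, 10.98 and 12.67 on NT and 5.58, 5.82 and 6.94 on TS. Igha, the heavy chain of IgA, read 10.05, 12.24 and 13.46 on NT and 6.71, 7.47 and 8.58 on TS. NT 6 was the lowest of the unstripped arrays for both, and still lay 1.56 and 1.47 above the highest stripped array.

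Genes of the dermal matrix were called in both directions. Of 57 varying genes 12 rose (21.1%, against 23.9% of all genes) and 21 fell (36.8%, against 24.6%). Fn1 (fibronectin) read 11.96, 12.29 and 12.47 on NT and 10.20, 10.42 and 10.56 on TS, a 3.63-fold fall without overlap. Col14a1, a collagen of the fibril surface, fell by 2.03 (SE 0.16), Efemp1, a fibulin, by 1.51 (SE 0.17), and Ogn (osteoglycin) by 1.20 (SE 0.13). Rises were seen in Mmp11, a stromal protease, from 7.99 to 8.61 on NT to 9.80 to 10.47 on TS, in Lox, which cross-links collagen and elastin (1.20, SE 0.26), in Thbs2 (0.91, SE 0.13) and in Eln, elastin (0.72, SE 0.13). Fcgbp, a mucin-like secreted protein, fell by 2.90 (SE 0.19) and Sfrp2, a Wnt antagonist of dermal fibroblasts, fell by 2.61 (SE 0.52).

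Receptors for prostaglandin E2, a lipid signal of inflammation and pain, were lower. Ptger3 read 9.56, 9.75 and 10.04 on NT and 6.89, 7.48 and 7.75 on TS, a fall of 5.13-fold (adjusted p = 1.11e-06). Ptger4 read 9.64, 9.80 and 9.86 on NT and 8.32, 8.70 and 8.85 on TS, a fall of 2.19-fold (adjusted p = 4.64e-06), and neither overlapped. The prostaglandin E synthase Ptges rose by 0.68 (SE 0.11). Of the 20 varying genes of the list 3 rose and 9 fell, with 1 rise when each gene was read by its brightest probe set overall.

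Clock genes differed between the groups. Dbp, an output of the clock, read 11.83, 11.85 and 12.09 on NT and 8.06, 9.51 and 9.80 on TS, a 6.13-fold difference (adjusted p = 2.02e-05). Per3, Nr1d2 and Tef fell by 1.25 (SE 0.12), 0.60 (SE 0.047) and 0.58 (SE 0.054). The activators Clock and Arntl and the repressor Nfil3 rose by 0.63 (SE 0.062), 0.35 (SE 0.084) and 0.44 (SE 0.098). Of 15 varying clock genes 3 rose and 6 fell, with 6 higher without NT 6. The time of day at which skin was taken is not given, so sampling time and stripping cannot be told apart here.

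**Figure D5:**
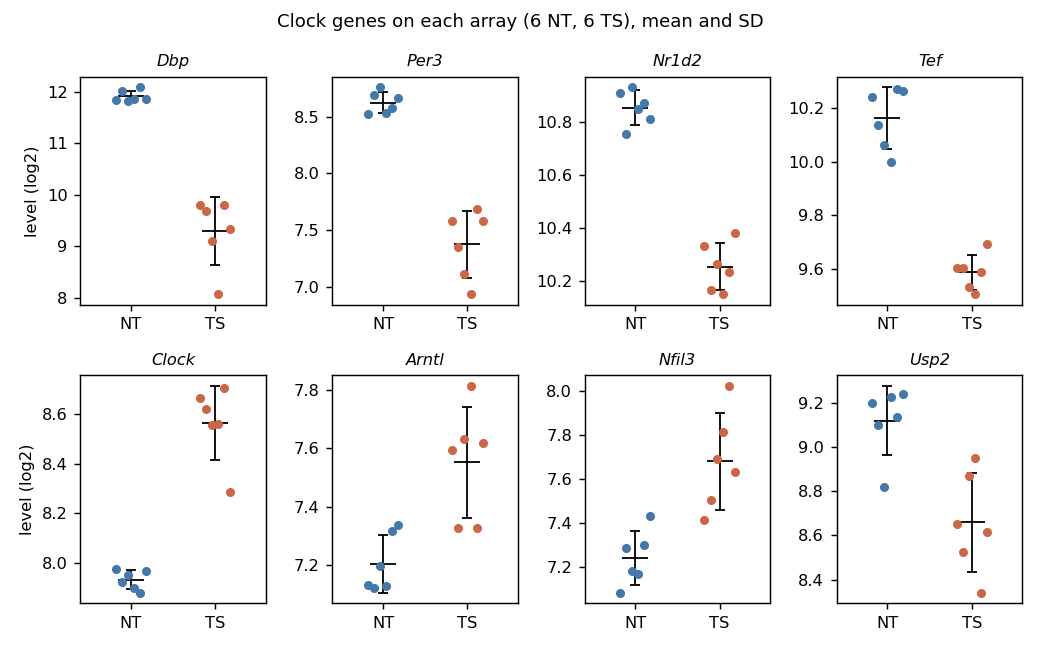
Levels (log2) of 8 clock genes on each of the 6 NT and 6 TS arrays, 1 point per array, with the mean and SD as a bar. Dbp, Per3, Nr1d2 and Tef lie lower on TS without overlap, Clock lies higher without overlap, and the remaining 3 differ by less than 0.5.

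Genes of defence against oxidants and of nutrient use were called in both directions. Of 34 varying antioxidant genes 4 rose and 19 fell (55.9%). Gsto1 and Mgst2, glutathione transferases, rose by 1.82 (SE 0.10) and 1.73 (SE 0.11), while Gstm2, Gstm1 and Gstm5 of the mu class fell by 1.17 (SE 0.088), 0.90 (SE 0.12) and 0.69 (SE 0.062). Mt4, the metallothionein of stratified epithelia, rose by 2.09 (SE 0.25) and Mt2 by 0.87 (SE 0.15). Crabp2, a retinoic acid carrier of differentiating keratinocytes, rose by 1.39 (SE 0.10), and Adh6a, an alcohol dehydrogenase, fell by 2.93 (SE 0.29). Of 19 amino acid and polyamine genes 10 rose and 2 fell (1 without NT 2, NT 4, TS 1, TS 3 or TS 4), with the serine synthesis enzyme Psat1 (1.51, SE 0.26) and the amino acid carrier Slc7a5 (1.19, SE 0.11) rising furthest. Of 18 genes of glucose and glycogen use 3 rose and 8 fell (44.4%): Pdk4, which turns cells from glucose to fat as fuel, rose by 2.16 (SE 0.47), and Pygl, which breaks down glycogen, fell by 1.47 (SE 0.14). Fos, an immediate early gene and a part of AP-1, rose by 3.32 (SE 0.71), but it varied among unstripped skins, at 6.77, 8.52 and 10.77, and overlapped with stripped ones at 10.65, 11.73 and 13.29. Its partner Junb rose by 0.81 (SE 0.12) with no overlap (8.50 to 8.99 on NT, 9.08 to 9.85 on TS). Of 22 varying immediate early genes 7 rose (31.8%, against 23.9% of all genes), 1 fell and 14 were not called.

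Of 29 varying genes of mitochondrial energy supply 3 rose and 12 fell (7 after quantile normalization), with Cox7a1, the muscle form of a respiratory chain subunit, which fell by 2.18 (SE 0.34). Of 20 varying blood vessel genes 5 rose (25%) and 4 fell (20%; 2 without TS 1 or TS 4, and 3 rose and 0 fell when constant probe sets were tested too), both near the shares of all genes. The vessel markers Vcam1 and Pecam1 read 7.53 to 8.31 and 7.85 to 8.31 on NT and 8.25 to 9.30 and 8.30 to 8.64 on TS. Of 18 varying ribosomal protein genes 7 rose, none by more than 0.21.

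Levels in stripped skin from extract-fed mice are given beside these for a few genes, since that group was stripped too. Krt77 was 6.11 ± 0.48 (SD, n = 6) in TS_WB against 6.51 ± 0.48 in TS and 15.10 ± 0.23 in NT. Rptn was 14.23 ± 0.55 in TS_WB and 13.28 ± 0.51 in TS, and Dbp was 9.35 ± 0.62 and 9.30 ± 0.67. Wfdc12 was 8.63 ± 0.35 in TS_WB against 12.27 ± 0.39 in TS and 8.03 ± 0.38 in NT. The actin 3' minus 5' difference was 5.69 ± 0.25 on TS_WB arrays, which puts RNA quality and extract feeding in the same group of arrays, where they cannot be told apart.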

How the data were processed

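The values are the authors' deposited table for Affymetrix mouse genome arrays, 1 array per skin sample from 100 ng of total RNA per the labels. The deposited values were read as log2 from their range (2.93 to 19.04). The log base, summarisation, normalization and the reason that 33091 of the 45037 probe sets that are not controls hold a constant value are not given in the sources used here, so part of each difference may come from that processing. Gene names came from the platform annotation of the array: 10643 varying probe sets have 1 symbol, 443 several and 860 none, and only the first kind was named. A gene was read by its varying probe set with the highest mean over the 18 arrays, which gave 7443 genes.

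The 12 NT and TS arrays were fitted with lmFit and eBayes (limma 3.58.1, R 4.3.3), two-sided, with Benjamini-Hochberg adjustment over 11946 probe sets, and the fit was checked on simulated data. A call needed an adjusted p under 0.05 and a difference of at least 0.01. The 3 array measures (actin and Gapdh 3' minus 5', array median) were compared with exact permutation tests, whose smallest p here is 0.00216. P-values measure the spread between these 12 samples. The number of arrays limits the precision. Gene lists, and the choice of what to compare, were made with earlier results of these data known, and lists are described by counts, with no test of a list. Named genes were taken from the 20 largest rises and falls, up to 5 called members per direction in each role of a list, all varying members of lists with fewer than 6, and a fixed set of keratinocyte, cytokine, fat and muscle genes.

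Replicate numbers recur in both groups in the labels, but the deviations of same-numbered arrays correlated at -0.13 to 0.13, so they were not taken as pairs. Alternatives were all 18 arrays in 1 fit, all probe sets, another range filter, quantile normalization, median centring, array weights, trend and robust variance, a filter on dim probe sets, a replicate block, a larger minimum difference, probe sets averaged within a gene, and each array left out. Reading each gene by its brightest probe set overall was added after seeing the data. Start sites and sequences are RefSeq's (GRCm38.p6); 27025 genes have a window.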

Additional observations from a re-analysis of the deposited data

Results flagged for a closer look

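Within groups of 6 arrays, 1 array stood apart from the other 5 for 22 of the 334 sets of values tested (164 named genes and 3 array measures in each group). That is 6.59%, and chance alone marks about 1 in 20. TS 5 was the array that stood apart in 9 of the 22, and TS 1, TS 2 and TS 3 in 0.

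On TS 5, some genes of late keratinocyte differentiation and of the interleukin 36 family were low. Flg read 11.71 there (next lowest 12.36), Hrnr 11.03 (12.14), Lor 12.43 (13.43), Krt1 13.50 (13.85) and Mt4 10.04 (10.98). Il1f5 read 10.50 (11.12), Il1f8 9.44 (10.29) and Ovol1 8.32 (8.90). Of the genes flagged on TS 5, only Ifitm1 was high, at 10.16 (next highest 9.26). Envelope genes were not all low there. Of the 29 that rose, 13 were lowest on TS 5 among the stripped arrays and 8 were highest. Of the small proline-rich genes that rose, 4 of 7 were highest on TS 5 among the stripped arrays. Of the late cornified envelope genes that rose, 3 of 6 were highest there and 3 lowest.

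Other stripped arrays stood apart in 3 genes. TS 4 read 5.39 for Cxcl3 (next lowest 6.69). TS 6 read 8.28 for Clock (next lowest 8.56) and 9.54 for Ivl (next highest 8.99).

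Among unstripped arrays, NT 5 read 19.04 for Alb (next highest 6.96) and NT 4 read 12.03 for S100a8 (next highest 8.73). NT 2 was low in Fcgbp at 9.59 (next 10.35) and in Il1f6 at 7.16 (next 7.77), and high in Pygl at 10.30 (next 9.65). NT 1 was low in Ccl12 at 8.60 (next 9.36) and in Rrm2 at 8.14 (next 8.48). NT 6 was high in Grhl3 at 8.23 (next 7.58) and in Bmp4 at 9.48 (next 9.03), and NT 3 was high in Ogn at 12.33 (next 11.76).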

How the results depend on the processing

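The count of called probe sets, 5664, was 4430 when constant probe sets were tested too and 5108 (without NT 4) to 5775 (without TS 4) when single arrays were left out. No alternative moved it, or the count of called genes (3614), by over 1.5 times. Of the named genes that were called, none changed sign, and Myh4 and Krtap15 lost their call, Krtap15 when constant probe sets were tested too (adjusted p = 0.0613) and Myh4 there (0.142), in the fit of 18 arrays (0.0746), with the replicate block (0.0676), with probe sets averaged (0.0577) and without single arrays (0.0110 to 0.0947 over the 12). Averaging a gene's probe sets moved the difference by over 1.5 times, with the call kept, for Clec4e (-2.88 to -1.62), Clock (0.63 to 0.35), Klf5 (1.09 to 0.58), Ptger4 (-1.13 to -0.65), Ptprz1 (3.39 to 1.97), Serpinb12 (5.24 to 3.34) and Tfap2c (1.32 to 0.82). Of genes named as not called, Lor, S100a8, S100a9, Krt17, Il1b and Alb were called under some. Gapdh 3' minus 5' differed by 0.15 (exact permutation p = 0.0476, adjusted 0.0714), and by 0.14 after quantile normalization (exact permutation p = 0.0584). Counts within lists moved by over 1.5 times in 301 combinations of list and setting, mostly counts of 4 or fewer. The replicate number as a block gave 5213 called probe sets and 3296 called genes. The numbers share no stated source, and 2 of the 6 unstripped arrays correlated best, in deviations from the group mean, with the stripped array of their own number. Probe sets dimmer than 6.94 carry differences of uncertain size, since no background measure was used.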

Other observations

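Genes of pigment making were higher in stripped skin of these albino mice. Of 7 varying members 4 rose and 0 fell by limma (also 0 at an unadjusted p under 0.05; 1 fell without TS 6). Tyrp1, an enzyme and marker of melanocytes, read 7.12, 7.70 and 8.48 on NT and 8.36, 9.08 and 9.85 on TS, a rise of 1.36, SE 0.30 (adjusted p = 0.0034). Of 6 varying nerve and Schwann cell genes 3 fell and 1 rose (0 without NT 2 or NT 4). Scn7a, a sodium channel of nerve sheath cells, read 8.54 to 9.05 on NT and 7.68 to 8.11 on TS.

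A pair of the 20 largest rises belong to none of the groups described. Ptprz1, a receptor phosphatase best known from the brain, read 5.29, 5.44 and 5.83 on NT and 7.75, 8.77 and 9.92 on TS (adjusted p = 2.17e-05). Mtm1, a lipid phosphatase of membrane traffic, read 9.07, 9.42 and 10.27 on NT and 10.80, 12.49 and 13.26 on TS (adjusted p = 1.85e-04), and neither gene overlapped between groups.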
